A study of Mus musculus with 5 samples.

Results

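Efferocytosis is the uptake of apoptotic cells by phagocytes, and 10 genes of its receptors and bridging proteins were examined in bone marrow-derived macrophages (BMDMs) cocultured with breast cancer cells. The genes were listed by symbol and matched to their Entrez identifiers, and all 10 were found among the 17058 genes with a listed transcript in at least 1 of the 5 libraries. They comprise the TAM receptors *Axl*, *Mertk*, and *Tyro3*, the TAM ligands *Gas6* and *Pros1*, the bridging protein *Mfge8*, the receptor *Timd4*, the integrin subunits *Itgav* and *Itgb5*, and the engulfment adaptor *Elmo1*. The macrophages came from the marrow of mice that were 6 to 12 weeks old and were differentiated with M-CSF. They shared the dish with 4T1 cells, a mammary carcinoma line of BALB/c mice, for 48 hours across a porous membrane. The methods name BALB/c and another strain as marrow donors and do not say which was used here. Elsewhere the paper describes the marrow donors of its cocultures as female WT mice. In 2 libraries the 4T1 cells were WT, and in 3 they were *Adam17-/-*. *Adam17* encodes a membrane protease that sheds ligands and receptors from the cell surface, and its deletion was in the 4T1 cells only, whereas the sequenced macrophages kept the gene. All 3 *Adam17-/-* libraries carry the designation 2.8 in their labels, which makes them cocultures with 1 knock-out line, and what that line has besides the loss of *Adam17* cannot be told apart from it. The labels do not say whether replicates came from separate cultures or animals, and the p-values therefore measure only the spread between these samples, which may be technical.

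Phosphatidylserine on the surface of a dying cell is the main signal for its uptake. TIM-4, encoded by *Timd4*, binds the lipid directly, whereas the TAM receptor tyrosine kinases AXL, MERTK, and TYRO3 are linked to it by the soluble protein GAS6, MERTK and TYRO3 also by protein S (*Pros1*), and integrins that contain the αv chain are linked to it by MFG-E8. ELMO1 acts with DOCK proteins to activate RAC, which drives the closing of the actin cup around the corpse. MERTK is known as the TAM receptor of resting and tolerant macrophages, and AXL as that of macrophages in inflamed settings.

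For every transcript the deposited files give an expected count and FPKM, where an expected count divides a read that matches several transcripts among them and FPKM relates reads to transcript length and library size. The libraries held 14658694 to 20788373 counts, and 3 counts, taken as the floor below which levels have no meaningful order, equal 0.157 to 0.197 CPM (counts relative to the library total, scaled with edgeR's TMM factors). Of the 10 genes, 8 passed edgeR's filter on low counts and were tested among 12576 genes with its quasi-likelihood test, while *Tyro3* and *Timd4* did not pass it. The macrophage markers were present in every library. Their summed level (*Adgre1*, *Csf1r*, *Cd68*, *Itgam*, *Fcgr1*, and *Lyz2*) was 27042 to 27689 CPM with WT cells and 17515 to 19396 CPM with *Adam17-/-* cells, and 5 of the 6 passed as lower, all but *Csf1r* (adjusted p = 0.0520). Epithelial markers, which could mark carried-over cancer cells, summed to 11.0 to 13.9 CPM over all libraries, of which *Cdh1* made up nearly all and each other marker at most 0.438 CPM, with *Epcam* at 0 counts in 4 of the 5. Neutrophil markers summed to 311 to 377 CPM with WT and 1107 to 1280 CPM with *Adam17-/-* cells, and 7 of the 8 passed as higher, among them *Camp* (7 and 2 counts with WT and 13 to 22 with *Adam17-/-* cells), which entered the test only through the libraries where it was high. Megakaryocyte markers (50.0 to 54.9 against 80.9 to 136 CPM), dendritic cell markers (10.6 to 16.0 against 19.6 to 26.9 CPM), and stromal markers (35.1 to 41.9 against 40.9 to 121 CPM) passed as higher in 5 of 6, 2 of 5, and 2 of 6 genes tested. Resident macrophage markers summed to 284 to 321 CPM with WT and 118 to 165 CPM with *Adam17-/-* cells, a sum that is almost wholly *Siglec1*, as *Clec4f*, *Cd5l*, *Vsig4*, and *Spic* were at most 1.05 CPM each. No marker list had a gene at 0 in every library. In bulk RNA, fewer cells of a type and less RNA per cell cannot be told apart, and the part of these markers in the results below was not tested. The counts of the WT replicates differed from each other more than those of the *Adam17-/-* replicates did, with a chi-square per degree of freedom of 25.7 against 5.22 to 6.32.

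In this comparison, which asked how the cancer cells' *Adam17* affects the cocultured macrophages, the bridging ligand *Gas6*, the integrin subunit *Itgb5*, and the adaptor *Elmo1* were lower after coculture with *Adam17-/-* than with WT cells. None of the 8 tested genes passed as higher, and the receptors *Axl* and *Mertk*, the ligand *Pros1*, the bridging protein *Mfge8*, and the integrin subunit *Itgav* did not pass in either direction. These 3 of 8 stand against a background in which 31.7% of all genes tested passed, 16.8% as lower and 14.9% as higher, at an adjusted p of 0.05 or less. When a log2 fold change of at least 1 was also required, 0 of the 8 were called, against 4.22% of all genes, 0.867% as lower and 3.36% as higher. In 5 of the 8, every *Adam17-/-* library lay below both WT libraries, as it did for 29.7% of all genes (58.1% in either direction), and in the other 3 the groups overlapped. The median log2 fold change was -0.24 over the 8 genes and 0.01 over all genes, and the median size without its sign was 0.24 against 0.27. Scaling by library size only moved the median of all genes to 0.16, and the fits on log2(FPKM + 0.1) and log2(FPKM + 1) moved it to 0.15 and 0.11. *Mertk* and *Itgav* changed sign in these fits, and *Mfge8* only in those on FPKM, for which the cause was not tested. With either WT replicate left out, 1 WT library remains, and the fit takes its spread from the *Adam17-/-* libraries alone. Calls from these 2 fits are therefore not counted, and only their log2 fold changes are given. Without *Adam17-/-* replicate 1 or replicate 2, 2 genes passed as lower, as *Itgb5* no longer did. The share of all genes that passed as lower was 7.42% and 9.38% in these fits.

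**Figure D1:**
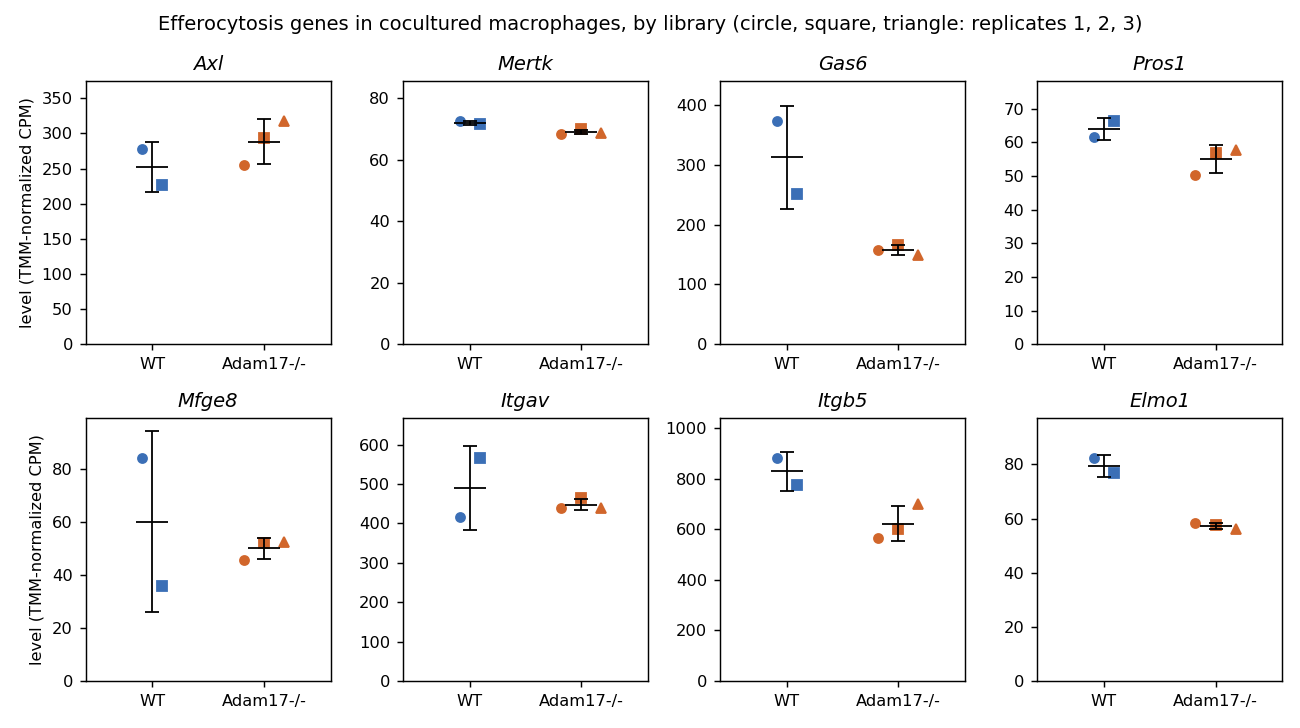
Level of each of the 8 tested genes in TMM-normalized CPM on a linear axis from 0, with 1 panel per gene, 1 point per library, and the mean ± SD of the 2 WT and 3 *Adam17-/-* libraries in black. The *Gas6*, *Elmo1*, *Itgb5*, *Pros1*, and *Mertk* points of all 3 *Adam17-/-* libraries lie below both WT points (*Mertk* turned to a log2 fold change of 0.08 with library size only), and the WT points of *Gas6*, *Mfge8*, and *Itgav* lie far apart.

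*Gas6*, the vitamin K-dependent ligand of all 3 TAM receptors, showed the largest change of the 8 tested genes in edgeR's fit. It stood at 373 and 252 CPM in WT replicates 1 and 2 and 158, 166, and 149 CPM in *Adam17-/-* replicates 1, 2, and 3. Both WT libraries lay above all *Adam17-/-* libraries, but the WT replicates were far from each other while the *Adam17-/-* replicates were close together. The mean was 312 ± 85.6 CPM (SD, n = 2) with WT and 158 ± 8.76 CPM (SD, n = 3) with *Adam17-/-* cells, and *Gas6* fell by 0.99 on the log2 scale (standard error, SE, 0.14, 95% interval -1.30 to -0.67, adjusted p = 0.00135 from edgeR). Without WT replicate 1, the log2 fold change was -0.68, and without WT replicate 2 it was -1.25. *Gas6* passed in every alternative fit that kept both WT libraries, with an adjusted p of at most 0.0101. *Gas6* (Entrez Gene 14456, chromosome 8, 13465374 to 13494535, GRCm38) overlaps *Tmem255b* on the opposite strand. Whether reads were assigned by strand is not stated, and *Tmem255b* had 0 counts in every library.

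*Pros1* (Entrez Gene 19128, chromosome 16, 62854307 to 62929346) encodes protein S, which binds MERTK and TYRO3 and also acts as an anticoagulant. It stood at 61.5 and 66.2 CPM with WT cells and 50.3, 56.8, and 57.8 CPM with *Adam17-/-* cells. All *Adam17-/-* values lay below both WT values, yet *Pros1* did not pass the test (log2 fold change -0.22, 95% interval -0.43 to -0.01, adjusted p = 0.105). The value was -0.07 with library size only and in both fits on FPKM, and the groups overlapped in FPKM, with 17.4 and 19.6 against 16.2, 18.2, and 18.4. On the FPKM scale, which allows genes to be compared per length, *Gas6* stood at 135 and 95.7 with WT cells and 65.3, 68.3, and 61.0 with *Adam17-/-* cells, whereas *Pros1* stood at means of 18.5 ± 1.56 (SD, n = 2) and 17.6 ± 1.19 (SD, n = 3). *Gas6* thus held 88.6% and 83.0% of the summed FPKM of both ligands with WT cells and 80.1%, 79.0%, and 76.8% with *Adam17-/-* cells. The groups were apart in this share, with WT replicate 2 nearer to *Adam17-/-* replicates 1 and 2 than to WT replicate 1. The ratio of *Gas6* to *Pros1* differed by -0.74 on the log2 scale between the groups (exact permutation test, two-sided, p = 0.1, adjusted over 3 ratios 0.3), where 0.1 is the smallest p that 2 samples against 3 allow. This difference was -0.41 without WT replicate 1 and -1.08 without WT replicate 2.

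*Mfge8*, which encodes the secreted protein MFG-E8 that links phosphatidylserine to αv integrins, had the largest ratio between the WT replicates among the 8 tested genes. It stood at 84.3 and 36.0 CPM with WT cells and 45.5, 52.2, and 52.7 CPM with *Adam17-/-* cells. The *Adam17-/-* values lay between both WT values, and the log2 fold change was -0.26 (SE 0.27, adjusted p = 0.476). Each WT library decided its direction: the log2 fold change was 0.47 without WT replicate 1 and -0.75 without WT replicate 2. It was 0.01 in both fits on FPKM. The deposited values separate 2 transcripts of *Mfge8* (Entrez Gene 17304, chromosome 7, 79133768 to 79149060), NM_008594 and the shorter NM_001045489, which lacks an exon of 111 bases. The longer form carries a proline- and threonine-rich stretch that the shorter one lacks. The exon's sequence, at chr7:79143278-79143388 on the minus strand of GRCm38, is shown because it is what tells the 2 listed forms apart.
*Mfge8* exon of 111 bases: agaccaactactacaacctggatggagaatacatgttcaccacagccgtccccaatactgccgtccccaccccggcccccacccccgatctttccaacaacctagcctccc

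The form with this exon had 34.6 and 13.5 FPKM with WT cells and 19.1, 21.1, and 21.7 FPKM with *Adam17-/-* cells. WT replicate 1 was the highest and WT replicate 2 the lowest. The form without it had 2.83 and 3.36 FPKM with WT cells and 4.17, 5.30, and 4.84 FPKM with *Adam17-/-* cells, so that here both WT libraries lay below all the others. The longer form made up 92.4% of *Mfge8* FPKM in WT replicate 1 and 79.9% to 82.0% in the other 4 libraries. The gap between the WT replicates in *Mfge8* therefore lay in the longer form. The division of reads between transcripts is an estimate of the authors' software, and no test was made on it.

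**Figure D2:**
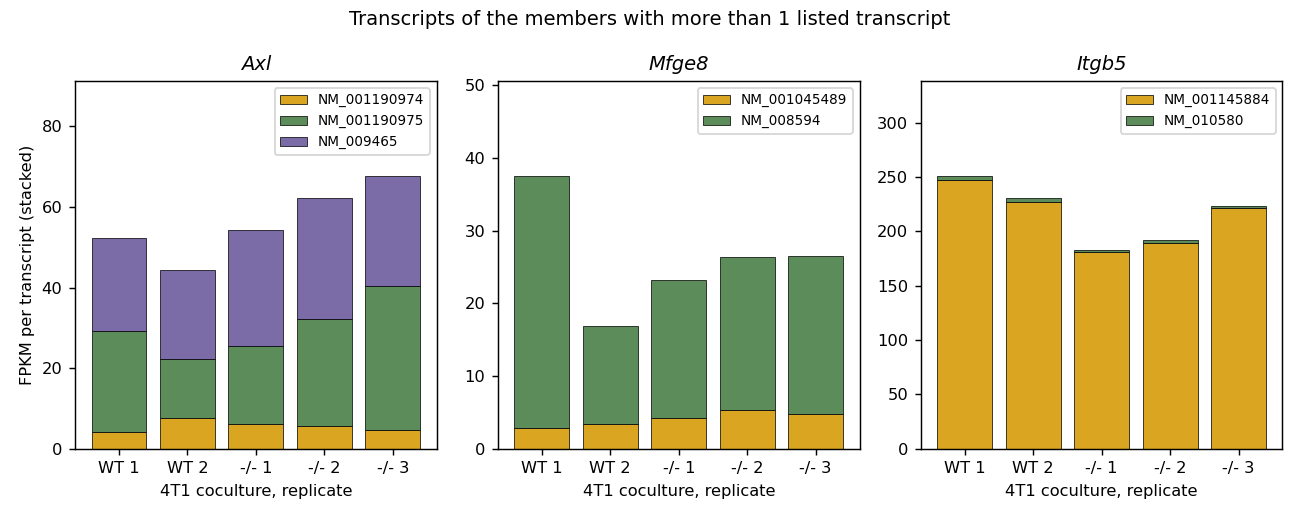
FPKM of each listed transcript of *Axl*, *Mfge8*, and *Itgb5*, stacked to the sum of the gene, with 1 bar per library. The *Mfge8* form NM_008594, with the exon of 111 bases, has 34.6 FPKM in WT replicate 1 and 13.5 in WT replicate 2, while NM_001045489 stays between 2.83 and 5.30, and NM_001145884 holds at least 98.5% of *Itgb5* in every library.

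*Axl* was the most abundant TAM receptor. It stood at 277 and 227 CPM with WT cells and 254, 293, and 317 CPM with *Adam17-/-* cells. The lowest *Adam17-/-* value lay between both WT values, so that the groups overlapped on this scale. The log2 fold change was 0.19 (SE 0.12, 95% interval -0.07 to 0.46, adjusted p = 0.230). *Axl* passed as higher when libraries were scaled by size only (log2 fold change 0.34, adjusted p = 0.0397) and in the fit on log2(FPKM + 0.1). It did not pass in the fit on log2(FPKM + 1) (adjusted p = 0.0518) or with the replicate number as a block (log2 fold change 0.12, adjusted p = 0.620). Its log2 fold change was 0.34 without WT replicate 1 and 0.05 without WT replicate 2. On the FPKM scale the groups did not overlap, with 52.2 and 44.3 FPKM against 54.3, 62.1, and 67.6 FPKM.

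*Mertk* (Entrez Gene 17289, chromosome 2, 128698915 to 128803162), the TAM receptor most tied to the uptake of apoptotic cells by macrophages, differed little between the groups. It stood at 72.5 and 71.6 CPM with WT cells and 68.5, 69.9, and 68.7 CPM with *Adam17-/-* cells. Each *Adam17-/-* library lay just below both WT libraries, and the log2 fold change was -0.06 (95% interval -0.24 to 0.11, adjusted p = 0.572), which turned to 0.08 with library size only and in both fits on FPKM. The FPKM values ran the other way, with 19.0 and 19.7 with WT cells and 20.5, 20.7, and 20.3 with *Adam17-/-* cells. The order of the groups in *Mertk* was thus set by the scaling. The ratio of *Axl* to *Mertk* FPKM within a library, which no scaling of the library affects, was 2.74 and 2.25 with WT cells and 2.64, 3.00, and 3.32 with *Adam17-/-* cells. The groups overlapped in this ratio (exact permutation test, two-sided, p = 0.3, adjusted over 3 ratios 0.3), where 2 samples against 3 cannot give a p under 0.1. The difference was 0.26 on the log2 scale, 0.40 without WT replicate 1, and 0.12 without WT replicate 2. Of the FPKM summed over all 3 TAM receptors, *Axl* held 69.3% to 76.8% across the 5 libraries.

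*Tyro3* (Entrez Gene 22174, chromosome 2, 119797740 to 119818104), the TAM receptor best known from the nervous system, was near the floor. Its counts were 4 and 1 with WT cells and 4, 7, and 9 with *Adam17-/-* cells. *Timd4* (Entrez Gene 276891, chromosome 11, 46810786 to 46844333), a marker of resident macrophages of the peritoneum and other tissues, had 9 and 2 counts with WT cells and 0, 0, and 1 with *Adam17-/-* cells. No fold change is given for either gene, as neither passed the filter on low counts and some libraries of each lay below the floor of 3 counts. With no filter on low counts, the adjusted p was 0.208 for *Tyro3* and 0.0475 for *Timd4*. Among other resident macrophage markers, *Cd5l* had 15 and 2 counts with WT cells and 1, 4, and 3 with *Adam17-/-* cells. *Clec4f* had 4 and 2 against 5, 5, and 4 counts, *Vsig4* 12 and 15 against 10, 16, and 7, and *Spic* 16 and 15 against 14, 9, and 10. *Siglec1*, which is also found on activated macrophages, was the one resident marker that passed, with 300.4 ± 26.0 CPM (SD, n = 2) against 142 ± 24.1 CPM (SD, n = 3), which is -1.08 on the log2 scale (adjusted p = 0.000690).

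Alternative splicing of *Axl* (Entrez Gene 26362, chromosome 7, 25756500 to 25788924) is listed in 3 transcripts. NM_009465 and NM_001190974 differ by an exon of 27 bases, a length that keeps the reading frame. The exon lies at chr7:25773099-25773125 on the minus strand of GRCm38 and is shown because it marks the less used form, which lacks it.
*Axl* exon of 27 bases: ggcaaggacagccactccaccatctgg

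The form without this exon held 8.19% and 17.1% of *Axl* FPKM with WT cells and 11.4%, 8.97%, and 7.03% with *Adam17-/-* cells. WT replicate 2 was the highest and the groups overlapped. NM_009465 held 40.4% to 53.2%, and the third transcript, NM_001190975, held 33.4% to 52.6%, both with overlapping groups. The annotation used here assigns the third transcript to the same model as NM_009465, which has the exon, but its deposited length is 4793 against 5084 bases, so that whether it carries the exon was not resolved and the share of *Axl* with the exon is not given.

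Of the integrin subunits that pair as αvβ5, a receptor for MFG-E8, *Itgb5* passed the test and *Itgav* did not. Whether their changes differ cannot be told from the test on their ratio, as 2 samples against 3 cannot give a p under 0.1. *Itgb5* (Entrez Gene 16419, chromosome 16, 33829665 to 33949338), which encodes β5, stood at 883 and 776 CPM with WT cells and 565, 601, and 699 CPM with *Adam17-/-* cells. All *Adam17-/-* values were below both WT values, with replicate 3 the nearest to them. *Itgb5* fell by 0.42 on the log2 scale (SE 0.11, 95% interval -0.66 to -0.17, adjusted p = 0.0177). The call was lost when libraries were scaled by size only (adjusted p = 0.0685), in the fits on FPKM (0.0744 and 0.0758), and without *Adam17-/-* replicate 1 (0.0943) or replicate 2 (0.0781), while the direction stayed the same in these fits. Of its 2 listed transcripts, NM_001145884 held 98.5% to 98.8% of *Itgb5* FPKM in every library.

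*Itgav* (Entrez Gene 16410, chromosome 2, 83722303 to 83806917) encodes αv, the chain that pairs with β3 or β5. It stood at 415 and 566 CPM with WT cells and 438, 463, and 440 CPM with *Adam17-/-* cells. The WT replicates enclosed all *Adam17-/-* values, and the log2 fold change of -0.13 (SE 0.12, adjusted p = 0.421) turned to 0.01 with library size only, to 0.03 in both fits on FPKM, and to 0.10 without WT replicate 2. Without WT replicate 1 it was -0.345. The ratio of *Itgb5* to *Itgav* FPKM was 4.59 and 2.96 with WT cells and 2.79, 2.80, and 3.43 with *Adam17-/-* cells. The groups overlapped, and the difference was -0.30 on the log2 scale (exact permutation test, two-sided, p = 0.3, adjusted over 3 ratios 0.3) and 0.02 without WT replicate 1. *Itgb3*, which encodes the β3 partner of αv, rose from 28.4 ± 1.28 to 54.7 ± 17.3 CPM (SD, n = 2 and 3), with a log2 fold change of 0.95 (adjusted p = 0.0135). β3 also belongs to the platelet integrin, and the megakaryocyte markers given above moved in the same direction. Their part in the *Itgb3* result was not tested.

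*Elmo1* (Entrez Gene 140580, chromosome 13, 20090507 to 20608353), the adaptor that brings DOCK proteins to the membrane, had the tightest replicates of the 3 genes that passed. It stood at 82.4 and 76.7 CPM with WT cells and 58.3, 57.6, and 56.2 CPM with *Adam17-/-* cells. The groups were well apart compared with the distance between replicates. *Elmo1* fell by 0.47 on the log2 scale (SE 0.08, 95% interval -0.66 to -0.29, adjusted p = 0.00315). It passed in every alternative fit that kept both WT libraries, and its log2 fold change was -0.53 to -0.30 over all 14 fits. *Dock1*, one of its partners, fell from 60.8 ± 0.124 to 42.4 ± 2.05 CPM (SD, n = 2 and 3), with a log2 fold change of -0.52 (adjusted p = 0.00237). *Dock2*, the partner in blood cells, fell from 341 ± 9.17 to 240.2 ± 3.54 CPM (SD, n = 2 and 3), with a log2 fold change of -0.50 (adjusted p = 0.00155). *Elmo1* overlaps 4 noncoding genes, and *Mertk* and *Itgav* overlap 2 noncoding genes or pseudogenes each, so that their counts are uncertain to the extent that such reads were counted with them.

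**Figure D3:**
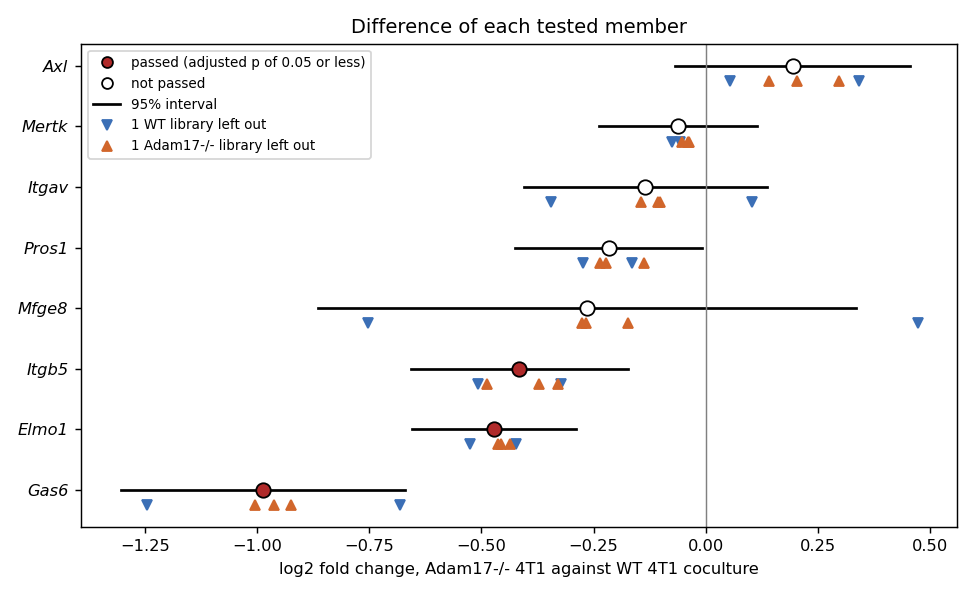
Log2 fold change of *Adam17-/-* against WT cocultures for the 8 tested genes from edgeR's fit with TMM factors (circles, filled where the gene passed), with 95% intervals as lines and, as triangles, the values with 1 library left out. *Gas6*, *Elmo1*, and *Itgb5* stay below 0 with any library left out, whereas *Itgav* turns to 0.10 without WT replicate 2 and *Mfge8* to 0.47 without WT replicate 1, and other scalings, which are not drawn, turn *Mertk*, *Itgav*, and *Mfge8* to between 0.01 and 0.08.

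Compared per length, the levels of the 10 genes spanned a wide range. In the WT libraries the order by mean FPKM was *Itgb5* (240.4 ± 14.3), *Gas6* (116 ± 28.1), *Itgav* (66.2 ± 16.5), *Axl* (48.2 ± 5.54), *Mfge8* (27.2 ± 14.6), *Mertk* (19.4 ± 0.445), *Pros1* (18.5 ± 1.56), *Elmo1* (13.6 ± 0.255), *Timd4* (0.13 ± 0.113), and *Tyro3* (0.030 ± 0.028), each as mean ± SD with n = 2. The libraries of neighbours overlapped between *Mfge8* and *Mertk*, *Mertk* and *Pros1*, and *Timd4* and *Tyro3*. In the *Adam17-/-* libraries *Itgb5* was again first with 199.7 ± 21.3 FPKM (SD, n = 3), followed by *Itgav* with 66.5 ± 1.87, *Gas6* with 64.9 ± 3.66, and *Axl* with 61.3 ± 6.68. Here *Itgav* and *Gas6*, and *Gas6* and *Axl*, overlapped. Within each library, *Gas6* stood above *Itgav* and *Axl* with WT cells and below *Itgav* with *Adam17-/-* cells, where its order against *Axl* was mixed. *Itgb5* was above 98.5% of the genes with an FPKM over 0 in WT and 98.4% in *Adam17-/-* cocultures, and *Elmo1* above 69.7% with WT and 64.8% with *Adam17-/-* cells.

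**Figure D4:**
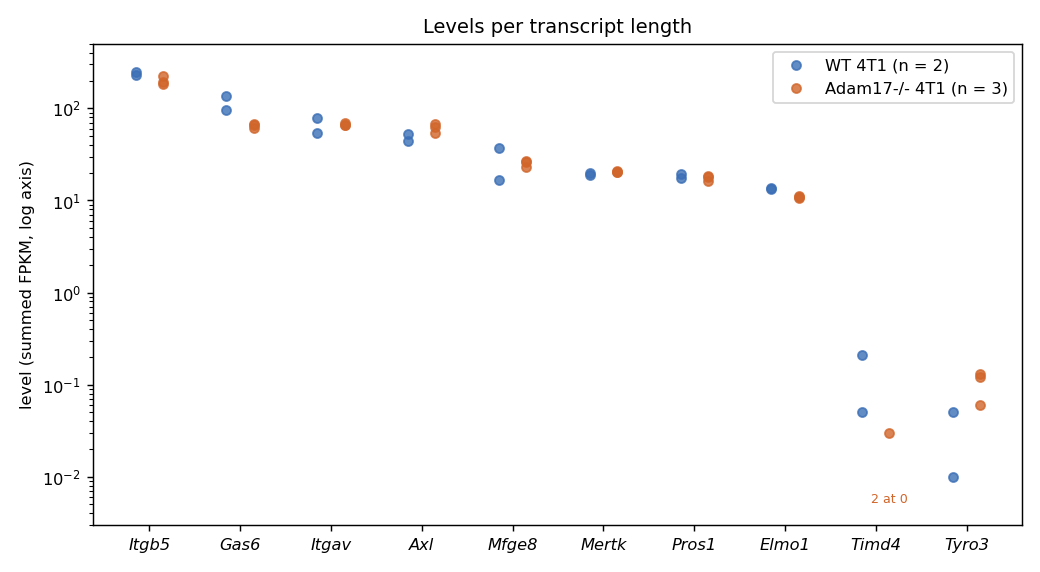
Summed FPKM of each of the 10 genes on a log axis, ordered by WT mean, with 1 point per library for the 2 WT and 3 *Adam17-/-* libraries (2 of the *Timd4* values are 0 and are given as text). *Itgb5* is the highest in every library, and *Gas6* lies above *Itgav* and *Axl* in the WT libraries and overlaps both in the *Adam17-/-* libraries.

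The promoters of the 3 genes that passed as lower are shown as the sequence upstream of the genes that changed. They were taken from RefSeq's annotation of GRCm38.p6 as the 250 bases before the first listed start of each gene, 5′ to 3′ on the gene's strand, with GC boxes (GGGCGG or its reverse complement CCGCCC) in capitals.
*Gas6*, chr8:13494536-13494785, minus strand: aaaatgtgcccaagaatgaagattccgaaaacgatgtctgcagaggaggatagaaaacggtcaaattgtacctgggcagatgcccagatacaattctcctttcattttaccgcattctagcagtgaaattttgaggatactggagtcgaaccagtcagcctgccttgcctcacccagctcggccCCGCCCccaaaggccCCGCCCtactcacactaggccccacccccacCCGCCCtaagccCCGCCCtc
*Elmo1*, chr13:20090257-20090506, plus strand: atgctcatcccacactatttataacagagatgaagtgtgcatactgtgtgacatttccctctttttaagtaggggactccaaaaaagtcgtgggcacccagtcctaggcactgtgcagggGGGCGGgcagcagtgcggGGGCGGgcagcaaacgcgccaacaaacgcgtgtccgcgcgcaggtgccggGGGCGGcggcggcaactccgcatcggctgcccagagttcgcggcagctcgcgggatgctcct
*Itgb5*, chr16:33829415-33829664, plus strand: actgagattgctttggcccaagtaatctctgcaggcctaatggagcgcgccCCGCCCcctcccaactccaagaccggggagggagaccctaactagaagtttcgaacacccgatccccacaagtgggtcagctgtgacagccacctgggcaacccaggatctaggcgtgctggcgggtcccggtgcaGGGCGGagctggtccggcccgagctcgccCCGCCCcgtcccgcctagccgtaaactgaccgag

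The *Gas6* window held 4 GC boxes and those of *Elmo1* and *Itgb5* held 3 each. Over the 10 genes, 8 had at least 1 GC box, all but *Timd4* and *Itgav*, against 32.7% of 32851 mouse promoter windows of the same length, and the 8 include genes that passed and genes that did not. An AP-1 motif (TGANTCA) was found in 0 of the 10 windows and in 6.75% of all windows. An E-box (CACGTG) was also found in 0 of the 10, against 6.02%, as were a CRE (TGACGTCA, 1.55%) and the direct repeat element of LXR, searched without mismatches (0.0152%). A PU.1 motif (GAGGAAGT) was found in *Itgav* only (2.44% of all windows), a STAT motif (TTCNNNGAA) in *Pros1* only (7.02%, with a second listed start of *Elmo1*, at chr13:20472740-20472989, that has 2 and is not counted here), and a partial MARE (TGCTGAC) in *Timd4* only (3.81%). Both strands were searched, and a match is a description of the letters and not a binding site.

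Another 104 genes of the pathway, in 8 lists, place these genes among their partners. Of the 94 that were tested, 34 (36.2%) passed as lower and 11 (11.7%) as higher, against 16.8% and 14.9% of all genes, and 49 did not pass. The median log2 fold change was -0.18 over the 94. The split depended on the scaling, since with library size only 18 of the 94 were lower and 15 higher, where 8.56% of all genes were lower and 24.0% higher. With a log2 fold change of at least 1, *P2ry6* was called lower and *Olr1* higher. *Megf10* was also past both limits, with WT counts too low for its fold change to be read. Leaving out *Adam17-/-* replicate 1 gave 18 lower genes, leaving out *Adam17-/-* replicate 2 gave 21, and leaving out *Adam17-/-* replicate 3 gave 7 higher genes. The shares of all genes fell in the same fits, to 7.42% and 9.38% lower and 9.74% higher.

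Of the 16 tested genes among other phosphatidylserine and scavenger receptors, 5 passed as lower and 6 as higher (median 0.04), with *Megf10* among the 6. *Stab1*, a scavenger receptor that binds phosphatidylserine, fell from 5005 ± 776 to 2624 ± 184 CPM (SD, n = 2 and 3), with a log2 fold change of -0.93 (adjusted p = 0.000739). *Lrp1*, a large endocytic receptor that recognizes calreticulin, fell by 0.54 on the log2 scale, from 5982 to 4125 CPM. *Cd300lf*, a receptor of phosphatidylserine, rose from 167 to 228 CPM (log2 fold change 0.45, adjusted p = 0.00883). *Olr1*, the receptor of oxidized LDL, had 24 and 13 counts with WT and 37, 63, and 60 with *Adam17-/-* cells, and its log2 fold change was 1.64 (SE 0.38, adjusted p = 0.0102). *Megf10* had 4 and 1 counts with WT cells against 7, 25, and 19 with *Adam17-/-* cells. It entered the test only through the *Adam17-/-* libraries, where it was high. Its pass (adjusted p = 0.0240) is therefore not read as a result and no fold change is given. *Megf10* did not pass in the fits on FPKM (adjusted p = 0.0976 and 0.195). *Cd300lf* did not pass with the replicate number as a block (adjusted p = 0.0539). The number of higher genes in this list was 3 without *Adam17-/-* replicate 3 and 4 without *Adam17-/-* replicate 2, where 9.74% and 9.96% of all genes were higher.

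The other bridging and opsonin genes were the list with the most negative median, -0.50, and 6 of the 9 tested passed as lower and 0 as higher. They were the complement genes *C1qa*, *C1qb*, and *C1qc*, the calreticulin gene *Calr*, the thrombospondin gene *Thbs1*, and the annexin gene *Anxa5*. *Calr* fell from 822 ± 97.7 to 417 ± 26.3 CPM (SD, n = 2 and 3), with a log2 fold change of -0.98 (adjusted p = 0.000381). *C1qc* fell from 909 ± 189.7 to 548 ± 71.4 CPM (SD, n = 2 and 3), with a log2 fold change of -0.73 (adjusted p = 0.00496). *Calr* mainly encodes a chaperone of the endoplasmic reticulum, and its RNA level says nothing of the protein on the cell surface. The lower count of this list was 2 without *Adam17-/-* replicate 1 or 2 and in the fits on FPKM, 3 with library size only, and 4 with the block or without *Adam17-/-* replicate 3.

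In the engulfment machinery, 7 of 18 tested genes passed as lower and 1 as higher (median -0.20). Besides *Dock1* and *Dock2*, the small GTPase genes *Rac2* (log2 fold change -0.33) and *Rhog* (-0.42) were lower, and the kinase gene *Src* was higher (0.41, adjusted p = 0.00536). The small GTPase genes *Rac1* (-0.21, adjusted p = 0.121) and *Cdc42* (-0.16, adjusted p = 0.261) did not pass. *Elmo2* and *Elmo3*, the relatives of *Elmo1*, did not pass, with log2 fold changes of -0.21 (adjusted p = 0.0738) and 0.36 (adjusted p = 0.156). The lower count of the engulfment list was 4 with library size only, with the block, and without *Adam17-/-* replicate 1, and 3 in the fits on FPKM. *Src* did not pass with the block (adjusted p = 0.0619). Of the genes of corpse processing, 7 of 19 passed as lower and 0 as higher (median -0.07), led by the late endosome GTPase *Rab7* (-0.49, adjusted p = 0.00194) and the lysosomal membrane gene *Lamp1* (-0.52, adjusted p = 0.00366). *Lamp2*, another lysosomal membrane gene of the list, did not pass (-0.07, adjusted p = 0.655). The macrophage marker *Cd68*, also a lysosomal protein, fell by 0.93 on the log2 scale, and its relation to these results was not tested. The lower count of the corpse processing list was 2 with library size only, in the fits on FPKM, and with the block. It was 3 with upper quartile factors or without any one *Adam17-/-* replicate. The higher count of that list was 2 with upper quartile factors, library size only, and the fits on FPKM.

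Of the nuclear receptors and cholesterol export genes that act after uptake, 2 of 9 passed as lower and 2 as higher (median -0.22). *Abca1*, which exports cholesterol, rose from 1181 ± 229 to 1951 ± 112 CPM (SD, n = 2 and 3), with a log2 fold change of 0.72 (adjusted p = 0.00290). The retinoid X receptor genes moved apart, *Rxra* at -0.47 (adjusted p = 0.00400) and *Rxrb* at 0.41 (adjusted p = 0.00823). Among the receptors for find-me signals and the inhibitors of uptake, 3 of 8 passed as lower and 1 as higher (median -0.24). *P2ry6*, a receptor of nucleotides that promotes phagocytosis, fell from 463 ± 81.9 to 228 ± 13.5 CPM (SD, n = 2 and 3), with a log2 fold change of -1.02 (adjusted p = 0.000485). *P2ry2*, which senses ATP and UTP from dying cells, fell by 0.89 on the log2 scale (adjusted p = 0.000689). *Cd47*, the inhibitor of uptake read by SIRPα, rose by 0.48 on the log2 scale (adjusted p = 0.00645). Without any one *Adam17-/-* replicate, with the block, with library size only, and in the fits on FPKM, 2 genes of the find-me list were lower.

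Downstream of the TAM receptors, 2 of 9 tested genes passed as lower and 0 as higher (median -0.18), namely *Plcg2* (-0.53, adjusted p = 0.00136) and the interferon receptor gene *Ifnar2* (-0.37, adjusted p = 0.00867). *Ifnar2* did not pass with library size only (adjusted p = 0.0503), with the block (0.0930), or without *Adam17-/-* replicate 1 (0.0641). In each of these fits, 1 gene of the list was lower. Among the proteases that shed TAM receptors and their regulators, 2 of 6 passed as lower and 1 as higher (median -0.11). The lower count was 0 with library size only, in the fits on FPKM, and without *Adam17-/-* replicate 1 or 3. It was 1 without *Adam17-/-* replicate 2 and with the block. The higher count was 0 with the block and without *Adam17-/-* replicate 2 or 3. *Adam17* in the macrophages themselves was lower by a log2 difference of -0.32 (adjusted p = 0.0129), but did not pass with library size only, in the fits on FPKM, with the replicate number as a block, and without any one *Adam17-/-* replicate. *Adam10* did not pass (log2 fold change -0.18, adjusted p = 0.227), and its value was -0.33 without WT replicate 1. *Rhbdf2*, which brings ADAM17 to the cell surface, fell by 0.49 on the log2 scale (adjusted p = 0.0188), but its value was -0.22 without WT replicate 1, and it did not pass with library size only (adjusted p = 0.0567), in the fits on FPKM (0.0782 and 0.0805), or without *Adam17-/-* replicate 1 (0.0801) or 3 (0.0653). The inhibitor *Timp3* rose by 0.72 on the log2 scale (adjusted p = 0.0423). It did not pass with the block (adjusted p = 0.0574) or without *Adam17-/-* replicate 2 (0.122) or 3 (0.127), and its log2 fold change was 0.46 without WT replicate 1.

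**Figure D5:**
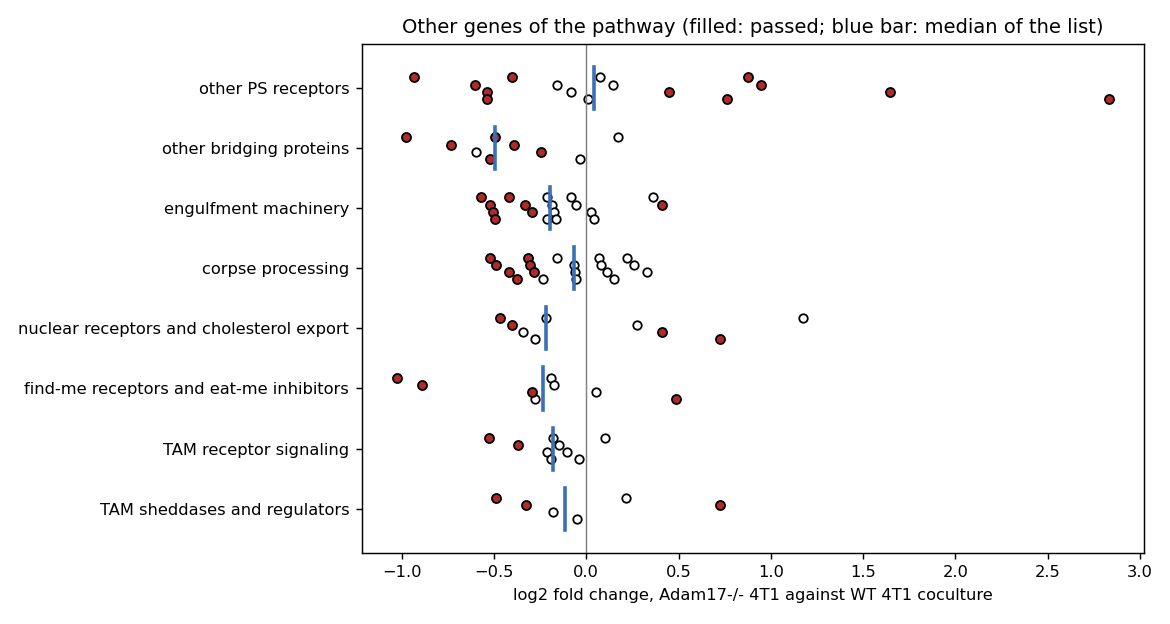
Log2 fold change of every tested gene in the 8 pathway lists (PS, phosphatidylserine), with 1 point per gene, filled where the adjusted p is 0.05 or less, and a blue bar at the median of the list. The bridging proteins have the lowest median, -0.50, with 6 of 9 genes lower, the other receptors have 6 higher and 5 lower genes, and the point farthest to the right is *Megf10*, whose WT counts of 4 and 1 are too low for its fitted value to be read.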

How the data were processed

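RNA-Seq libraries of 5 BMDM samples, 2 cocultured with WT and 3 with *Adam17-/-* 4T1 cells, were grouped by the sample labels. The values deposited by the authors are, for each transcript, an expected count without normalization and FPKM, which is scaled to the length of the transcript and the size of the library. The submitters' processing notes name Bowtie2, RSEM, Bowtie, DESeq2, and the build mm10 (GRCm38), with no versions given in the sources used here. The files list no transcript below 0.01 FPKM, and such transcripts were set to 0. Per gene, expected counts were summed and rounded, and for all 10 genes the sums were whole within 0.02. Of 17058 Entrez identifiers, 17015 matched a symbol.

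Counts were tested with the quasi-likelihood test of edgeR 4.0.16 (R 4.3.3) without covariates, after TMM scaling and filterByExpr, and Benjamini-Hochberg adjustment over all genes tested, and a gene passed at an adjusted p of 0.05 or less. Alternatives were DESeq2 1.42.0, RLE and upper quartile factors, library size only, limma 3.58.1 on FPKM after adding 0.1 or 1 and taking log2, no filter or at least 10 counts in every sample, a stricter threshold, the replicate number as a block, and each library left out in turn. The scripts were tested on simulated data. Genes named are all 10 members, in each pathway list those with a log2 fold change of at least 1 and otherwise the 2 of lowest adjusted p in each direction, and *Itgb3*, *Dock1*, *Dock2*, *Adam17*, and *Adam10*. One gene that this rule names is not reported here. The genes *Elmo2*, *Elmo3*, *Rac1*, *Rac2*, *Rhog*, *Cdc42*, *Lamp2*, *C1qa*, *C1qb*, *Thbs1*, and *Anxa5* and the marker genes named singly were added after their values were seen. The members and lists were chosen with earlier results of these data known. Sequences came from RefSeq and GENCODE annotation of GRCm38. Python 3.11.15, pandas 2.3.3, and matplotlib 3.10.9 were also used.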

Additional observations from a re-analysis of the deposited data

How the results depend on the processing

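Of the 112 values that the alternatives gave for the 8 tested genes, 91 kept their direction and their side of the threshold, 10 changed direction, 6 newly passed in the same direction, and 5 no longer passed. These counts include the fits with 1 WT library left, where the side of the threshold is not read. The direction of *Mertk* turned to 0.084 with library size only and to 0.084 and 0.081 in the fits on log2(FPKM + 0.1) and log2(FPKM + 1). *Mfge8* turned to 0.011 and 0.0070 in the fits on FPKM and to 0.47 without WT replicate 1, against -0.75 without WT replicate 2. *Itgav* turned to 0.0070 with library size only, to 0.029 and 0.028 in the fits on FPKM, and to 0.10 without WT replicate 2, against -0.345 without WT replicate 1. All of these changes of direction are of genes that had not passed. The median of all genes moved upward with library size only and in the fits on FPKM, but *Mfge8* stayed at -0.11 with library size only. *Pros1* kept its direction in every fit (-0.27 to -0.07). What caused the changes of direction was not tested.

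The number of members passing as higher was 1 with library size only and 1 in the fit on log2(FPKM + 0.1), where 24.0% and 23.3% of all genes were higher. It was 0 with any 1 *Adam17-/-* library left out. The number passing as lower was 2 to 3 with 1 *Adam17-/-* library left out and 0 at an adjusted p under 0.001 with a log2 fold change over 0.25. With a fold limit, 1 member, *Gas6*, was called lower without *Adam17-/-* replicate 2. *Timd4* was past both limits with no filter on low counts, but its counts are too low for this to be read as a call. Of the pathway genes, 18 were lower with library size only, 17 and 17 in the fits on FPKM, 4 under the stricter threshold, and 18 to 44 with 1 library left out. Over all genes, 8.56% were lower with library size only and 8.08% and 8.04% in the fits on FPKM. As higher, 0 passed under the stricter threshold and 7 to 13 with 1 library left out. The ratio of *Gas6* to *Pros1* ranged from -1.08 to -0.41 and that of *Itgb5* to *Itgav* from -0.62 to 0.017 with 1 library left out. The cause of these changes was not tested.

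With the replicate number as a block, 3 members were lower and 0 higher, and 21 pathway genes were lower. The groups share only replicate numbers 1 and 2, and the deviations of same-numbered libraries from their group means gave r = -0.124 and -0.0501. The deviations of 2 WT libraries are mirror images of each other, so that these values cannot show whether the samples were paired. Over all genes the block gave 1223 higher and 1131 lower genes, against 1869 and 2114 without it. With 14658694 counts in the smallest library, *Tyro3* and *Timd4* could not be ordered between the groups, and intervals cover this set of samples only.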
